A study of Mus musculus with 10 samples.

Results

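Histone-modifying enzyme genes were followed in mouse cortical midline, taken on embryonic day 14.5, in tissue with and without a conditional deletion of Rcor2. The genes were chosen by symbol: names that begin with Hdac, Kdm, Kmt, Kat or Prmt and a digit, or with Setd, Sirt or Ehmt, and that had a mean of at least 10 normalized read counts over the 4 RNA libraries. Of 71 matching symbols in a table of 16338 genes, 66 were kept. Hdac1, Hdac2, Kdm1a and Kdm5d were left out by name, and Kdm4d lay under the minimum. All 66 entered a fit of 14324 tested genes. Near the minimum, Setdb2 (mean 18.5), Setd4 (mean 163) and Sirt4 (mean 196) were the lowest genes kept, and Kdm4d, with 3.08 and 5.87 in the cKO and 9.75 and 13.0 in the controls (mean 7.92), was just outside.

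Nucleosomes carry acetyl and methyl groups on histone tails that help to set whether a gene is read. Acetyltransferases and lysine or arginine methyltransferases write these marks, and deacetylases, sirtuins and demethylases remove them. Rcor2 (REST co-repressor 2) belongs to the CoREST family of scaffold proteins, which hold the H3K4 demethylase Kdm1a and the deacetylases Hdac1 and Hdac2 in 1 repressor complex; the genes described here are the other erasers and the writers around that complex. In the developing cortex such enzymes take part in the switch from dividing progenitors to neurons, and mutations in several of their human counterparts cause disorders of brain development.

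RNA was sequenced from 2 conditional knockout (cKO) libraries, genotype Rcor2f/f/EMX1-iCRE, and 2 control libraries, genotype Rcor2f/f, all of the C57/Bl6 strain, so both groups carried floxed Rcor2 alleles and differed by the Cre transgene. Emx1-driven Cre is active in progenitors of the dorsal telencephalon and their descendants, and cells of other origin in the dissected tissue keep Rcor2. Chromatin immunoprecipitation with sequencing (ChIP-seq) was done on wild-type midline of the same strain and day, with 2 libraries each of Rcor2 antibody, rabbit IgG and input chromatin. Nothing in the labels gives litters or pooling, so p-values measure only the spread between these libraries, which held 27674987 to 30270598 reads each. Rcor2 itself had 6363 and 6840 in the cKO, against 7901 and 7257 in the controls, a log2 change of -0.20 (limma adjusted p 0.0541) that did not pass; which exons were floxed is not stated in the labels, and the count covers the whole gene, so the deletion itself was not checked. Genes of meninges and mural cells summed to 10681 normalized counts in cKO replicate 1 and 4256 in cKO replicate 2, against 3962 and 3711 in the controls, so cKO replicate 1 stood apart. In both genotypes, replicate 1 held Y-linked reads and replicate 2 held Xist.

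Most of the 66 enzyme genes stayed close to their control level in cKO midline. Kat6b and Hdac11 rose, Hdac5, Kdm1b and Kdm4b fell, and 61 genes did not pass an adjusted p of 0.05. Fold changes were small: on the log2 scale the changes ran from -0.23 to 0.26, and 65 of 66 were under 0.25 in size. The 5 called genes were 7.58% of the enzyme genes, beside 14.5% of all tested genes. Upward calls made up 2 of 66, beside 6.16% of all tested genes, and downward calls 3 of 66, beside 8.29%. Without a correction for multiple tests, 13 of 66 (19.7%) had p under 0.05, beside 30.1% of all tested genes, a share that also stands beside the unadjusted counts per class. The median size of the log2 change was 0.08 for the enzyme genes and 0.13 for all tested genes, and the signed medians were 0.00 and -0.01. Enzyme genes had a higher median normalized count (2488) than all tested genes (833), with no account of gene length. Fitted errors are smaller at higher counts, with a median SE of 0.06 against 0.08. These values are a description of the set, with no test against other genes.

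**Figure D1:**
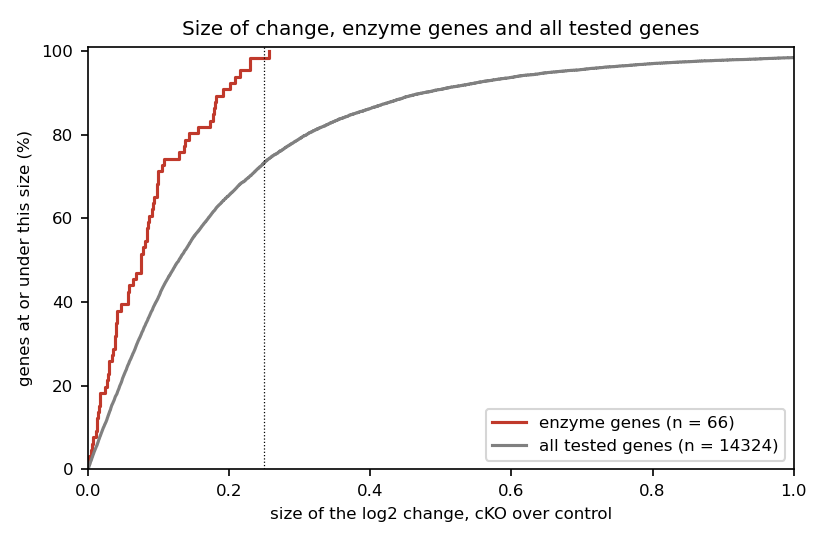
Share of genes (vertical axis, %) whose log2 change between cKO and control midline was at or under a given size (horizontal axis), for the 66 enzyme genes and all 14324 tested genes. The dotted line marks 0.25, under which lay 98.5% of the enzyme genes and 73.3% of all tested genes; the axis ends at 1.

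The 95% intervals set bounds on the changes that could have gone unseen. For all 66 genes the interval lay within a log2 change of 1 in either direction, and for 63 of 66 (95.5%) within 0.5, beside 68% of all tested genes. The 3 wider intervals belonged to Setdb2, Sirt3 and Kdm6a. Genotype groups did not overlap for 32 of the 66 genes (48.5%), of which 15 were higher and 17 lower in both cKO libraries, beside 61% of all tested genes. With 2 libraries a group, an exact permutation test of 1 gene cannot go below p = 0.333, so every call rests on the error estimate that limma shares across genes.

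**Figure D2:**
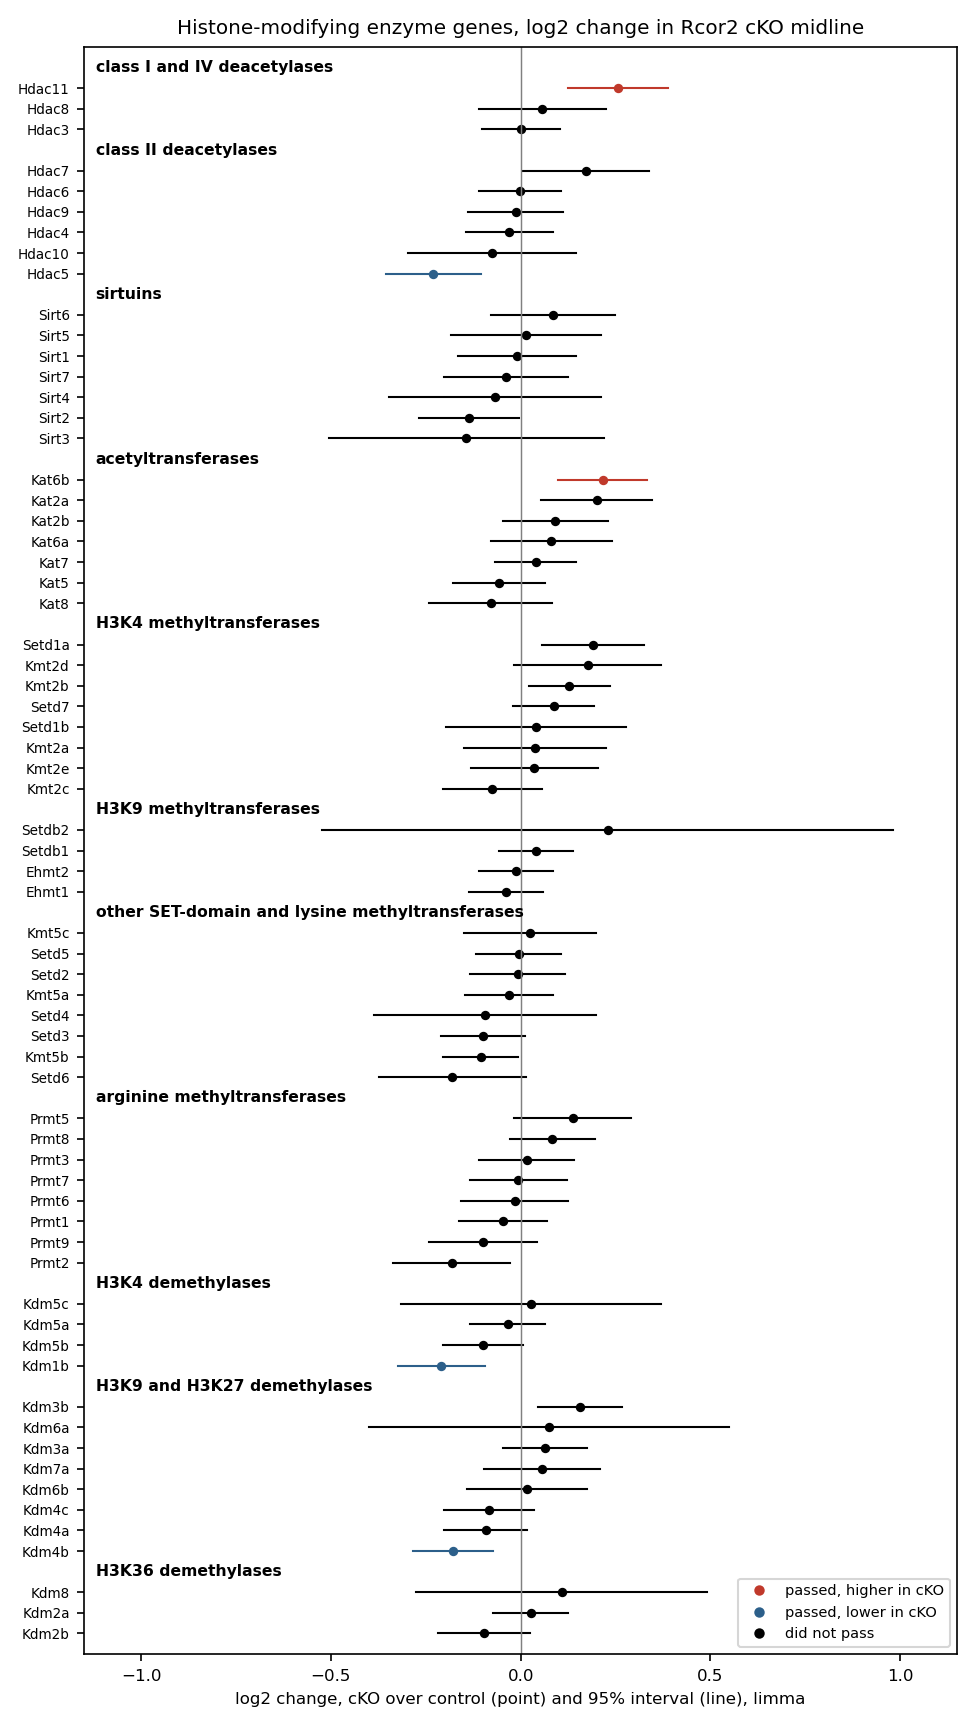
Log2 change of each of the 66 enzyme genes in cKO over control midline (point) with its 95% limma interval (line), grouped by enzyme class; red and blue mark genes that passed an adjusted p of 0.05 upward and downward. Kat6b and Hdac11 stand to the right of 0, Hdac5, Kdm1b and Kdm4b to the left, and Setdb2, at a mean of 18.5 normalized counts, has the widest line.

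Of the 9 deacetylase genes outside the sirtuins, Hdac11 rose, Hdac5 fell and 7 did not pass. Hdac11, the sole class IV deacetylase, which also removes long fatty acyl groups from lysine, had 1277 and 1305 in the cKO, against 1072 and 1089 in the controls (normalized counts). Both cKO libraries were above both controls, with means of 1291 ± 19.4 in the cKO and 1080 ± 11.9 in the controls (SD, n = 2 each). It rose by 0.26 on the log2 scale (SE 0.057, 95% interval 0.12 to 0.39, limma adjusted p 0.0233); the gene spans chromosome 6, 91156670 to 91174692 (GRCm38.p6). Hdac5, a class IIa enzyme that shuttles between nucleus and cytoplasm and restrains Mef2 factors, had 3542 and 3895 in the cKO, against 4347 and 4364 in the controls. Its controls lay close together and both cKO libraries were lower, with means of 3718 ± 250 in the cKO and 4356 ± 11.8 in the controls (SD, n = 2 each). The change was -0.23 on the log2 scale (SE 0.055, 95% interval -0.36 to -0.10, limma adjusted p 0.0290); the gene spans chromosome 11, 102195747 to 102230172 (GRCm38.p6). Hdac3, the catalytic subunit of the Ncor complexes, had 4243 and 4390 in the cKO, against 4293 and 4331 in the controls. Its groups overlapped, and the change of 0.00 had a 95% interval of -0.10 to 0.10. Hdac7, another class IIa enzyme, had 1159 and 1128 in the cKO, against 1075 and 958 in the controls, higher in both cKO libraries, but its change of 0.17 did not pass (limma adjusted p 0.151). Hdac4, also of class IIa, had 2528 and 2435 in the cKO, against 2494 and 2573 in the controls, and its groups overlapped. Hdac4 and Hdac9 of class IIa, Hdac6 and Hdac10 of class IIb and Hdac8 of class I had changes from -0.08 to 0.06 and did not pass.

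None of the 7 sirtuins, NAD-dependent deacylases, passed by limma, and 1 of the 7, Sirt2, had an unadjusted p under 0.05; edgeR and DESeq2 also called 0. Sirt2, a mostly cytoplasmic deacetylase that also acts on tubulin, had 1265 and 1277 in the cKO, against 1430 and 1365 in the controls. Both cKO libraries were lower, with a log2 change of -0.14 (95% interval -0.27 to -0.01, limma adjusted p 0.152). Sirt1, a nuclear deacetylase of histones and p53, had 1183 and 1294 in the cKO, against 1209 and 1284 in the controls, and its groups overlapped. The mitochondrial enzyme gene Sirt3 had 254 and 339 in the cKO, against 293 and 359 in the controls, a spread within each group that exceeded the difference between them (log2 -0.14, 95% interval -0.51 to 0.22). The mitochondrial Sirt4 and Sirt5, the nucleolar Sirt7 and Sirt6, which acts on H3K9 at chromatin, had changes from -0.07 to 0.09.

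Among 7 acetyltransferase genes, Kat6b rose and 6 did not pass. Kat6b (MORF), a MYST-family enzyme that acetylates histone H3 in a complex with Brpf scaffolds, had 9454 and 8869 in the cKO, against 7671 and 8106 in the controls. All cKO values were above all control values, with means of 9162 ± 414 in the cKO and 7888 ± 307 in the controls (SD, n = 2 each). The change was 0.22 on the log2 scale (SE 0.051, 95% interval 0.10 to 0.33, limma adjusted p 0.0280); the gene spans chromosome 14, 21499216 to 21672478 (GRCm38.p6). Its paralog Kat6a had 9898 and 8780 in the cKO, against 8381 and 9264 in the controls, with overlapping groups and a change of 0.08. Kat2a (GCN5), the acetyltransferase of the SAGA complex, had 2345 and 2087 in the cKO, against 1932 and 1917 in the controls. Both cKO libraries were higher, at a log2 change of 0.20 (95% interval 0.05 to 0.35, limma adjusted p 0.0725) that did not pass, and cKO replicate 1 stood above the other 3 libraries. Kat2b (PCAF), Kat5 (Tip60), Kat7 (HBO1) and Kat8 (MOF, the main H4K16 enzyme) had changes from -0.08 to 0.09.

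No gene of the 8 grouped here as H3K4 methyltransferases passed by limma, and 2 of the 8, Setd1a and Kmt2b, had an unadjusted p under 0.05. Kmt2b alone of the class passed by edgeR (adjusted p 0.0434), and DESeq2 called 0. Setd1a, the catalytic subunit of a SET1-COMPASS complex, had 1655 and 1548 in the cKO, against 1425 and 1379 in the controls. All cKO values were higher, with a log2 change of 0.19 (95% interval 0.06 to 0.33, limma adjusted p 0.0659). Kmt2b (MLL2), which methylates H3K4 at promoters, had 3274 and 3151 in the cKO, against 2941 and 2935 in the controls. Its controls were almost equal and both cKO libraries higher, at 0.13 (limma adjusted p 0.105). Kmt2c and Kmt2d, which methylate H3K4 at enhancers, did not pass. Kmt2c had 14258 and 13446 in the cKO, against 13936 and 15265 in the controls, with overlapping groups (log2 -0.08). Kmt2d had 6865 and 5823 in the cKO, against 5253 and 5958 in the controls, and cKO replicate 1 was above the other 3 libraries. Its log2 change was 0.30 over the controls for cKO replicate 1 and 0.06 for cKO replicate 2. Kmt2a (MLL1), a regulator of Hox genes, had 8826 and 7911 in the cKO, against 7499 and 8831 in the controls, with overlapping groups. Kmt2a, Kmt2e, Setd1b and the monomethyltransferase gene Setd7 had changes from 0.04 to 0.09.

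Of the 4 H3K9 methyltransferase genes, 0 passed by limma, edgeR or DESeq2, and 0 had an unadjusted limma p under 0.05. Ehmt2 (G9a) and Ehmt1 (GLP) form the main H3K9 mono- and dimethyltransferase. Ehmt2 had 7757 and 7972 in the cKO, against 7947 and 7925 in the controls (log2 -0.01, 95% interval -0.11 to 0.08). Ehmt1 had 7536 and 7391 in the cKO, against 7592 and 7749 in the controls (log2 -0.04, 95% interval -0.14 to 0.06). Intervals of both genes lay within 0.14 of 0 on the log2 scale. Setdb1, which trimethylates H3K9 at silenced repeats, had 4978 and 5004 in the cKO, against 4875 and 4827 in the controls, a change of 0.04. Setdb2 was read too little for a narrow bound, with 18.5 and 21.5 in the cKO, against 14.6 and 19.5 in the controls and a 95% interval of -0.52 to 0.98.

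Other lysine methyltransferases did not pass either, and 1 of the 8, Kmt5b, had an unadjusted p under 0.05 (limma; edgeR and DESeq2 called 0). Setd2, which trimethylates H3K36 behind RNA polymerase II, had 10382 and 9660 in the cKO, against 9726 and 10418 in the controls, with overlapping groups (log2 -0.01). Kmt5b, an H4K20 methyltransferase, had 4839 and 4980 in the cKO, against 5284 and 5280 in the controls. Its controls were nearly equal and both cKO libraries were lower, by a log2 change of -0.11 (95% interval -0.21 to -0.01, limma adjusted p 0.145). Kmt5a, which places the first methyl group on H4K20, and Kmt5c had changes of -0.03 and 0.02. Setd6, known to methylate the NF-kB subunit RelA, had 407 and 401 in the cKO, against 452 and 465 in the controls, lower in both cKO libraries (log2 -0.18, limma adjusted p 0.194). Setd5, linked to intellectual disability in humans, had 7798 and 7255 in the cKO, against 7534 and 7558 in the controls, with overlapping groups. Setd3, whose best known target is actin, Setd4 and Setd5 had changes from -0.10 to 0.00.

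Among the 8 arginine methyltransferase genes 0 passed by limma, edgeR or DESeq2, and 1, Prmt2, had an unadjusted limma p under 0.05. Prmt2 had 1971 and 2234 in the cKO, against 2429 and 2334 in the controls. Both cKO libraries were lower, and cKO replicate 1 much lower than cKO replicate 2 (log2 -0.18, 95% interval -0.34 to -0.03, limma adjusted p 0.107). Prmt5, the main enzyme of symmetric arginine dimethylation, needed by cortical progenitors, had 4557 and 3944 in the cKO, against 3819 and 3891 in the controls. cKO replicate 1 lay apart from the other 3 libraries, and the change of 0.14 did not pass (limma adjusted p 0.214). Prmt1, the main enzyme of asymmetric dimethylation, had 4424 and 4130 in the cKO, against 4481 and 4354 in the controls, with overlapping groups. Prmt8, a membrane-bound form found mostly in brain, had 2057 and 2079 in the cKO, against 1964 and 1938 in the controls, slightly higher in both cKO libraries (log2 0.08). Prmt3, Prmt6, Prmt7 and Prmt9 had changes from -0.10 to 0.02.

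Of the 15 demethylase genes, Kdm1b and Kdm4b fell and 13 did not pass. Kdm1b (LSD2), the closest relative of Kdm1a and likewise a flavin-dependent H3K4 demethylase, had 1689 and 1702 in the cKO, against 1953 and 1965 in the controls. Replicates of each genotype lay close together and the groups did not overlap, with means of 1695 ± 9.52 in the cKO and 1959 ± 8.50 in the controls (SD, n = 2 each). The change was -0.21 on the log2 scale (SE 0.050, 95% interval -0.32 to -0.09, limma adjusted p 0.0291); the gene spans chromosome 13, 47043373 to 47085279 (GRCm38.p6). Kdm4b, which removes methyl groups from trimethylated H3K9, had 3865 and 3965 in the cKO, against 4522 and 4341 in the controls. Both cKO libraries were lower, with means of 3915 ± 70.2 in the cKO and 4432 ± 128 in the controls (SD, n = 2 each). The change was -0.18 on the log2 scale (SE 0.046, 95% interval -0.28 to -0.07, limma adjusted p 0.0379); the gene spans chromosome 17, 56325970 to 56403774 (GRCm38.p6). Its relatives Kdm4a and Kdm4c, which remove the same mark, did not pass. Kdm4a had 8901 and 9482 in the cKO, against 9873 and 9714 in the controls (log2 -0.09), and Kdm4c had 1617 and 1651 in the cKO, against 1734 and 1727 in the controls (log2 -0.08), so both were below both controls in both cKO libraries. Kdm3b, an H3K9 mono- and dimethyl demethylase, had 6076 and 5674 in the cKO, against 5248 and 5292 in the controls, higher in both cKO libraries at 0.16 (95% interval 0.04 to 0.27, limma adjusted p 0.0682). Kdm5b, an H3K4 trimethyl demethylase, had 14290 and 14452 in the cKO, against 14972 and 15827 in the controls, lower in both cKO libraries at -0.10 (limma adjusted p 0.193), and its paralog Kdm5a had a change of -0.03. The H3K36 demethylase gene Kdm2a had 5914 and 5771 in the cKO, against 5690 and 5780 in the controls (log2 0.03), with overlapping groups. Its paralog Kdm2b, which brings a Polycomb complex to CpG islands, had 3351 and 3602 in the cKO, against 3793 and 3642 in the controls, lower in both cKO libraries (log2 -0.10, limma adjusted p 0.258). Kdm8 was read less, with 237 and 176 in the cKO, against 175 and 205 in the controls (log2 0.11, 95% interval -0.27 to 0.49). Kdm3a, Kdm6b (JMJD3, an H3K27 demethylase) and Kdm7a had changes from 0.02 to 0.06.

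**Figure D3:**
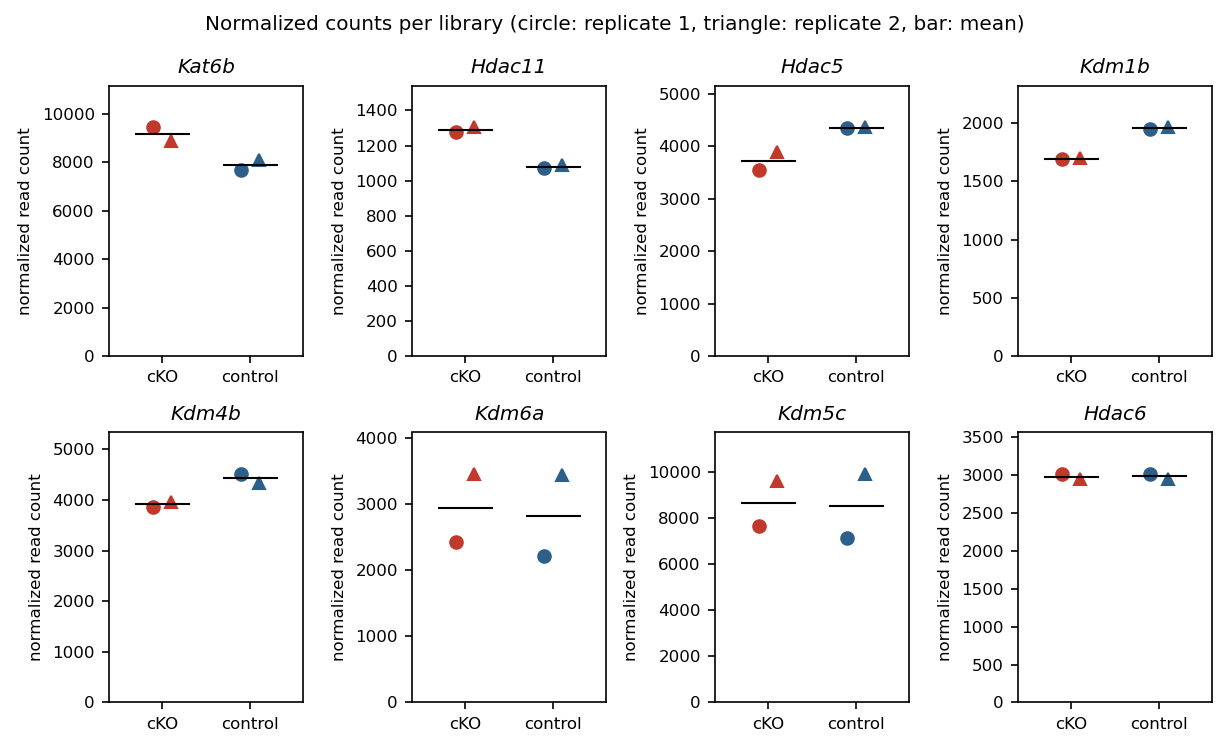
Normalized counts in each of the 4 RNA libraries (points, cKO left of control; circles are replicate 1 and triangles replicate 2; bars are means) for the 5 genes that passed and for the X-linked Kdm6a, Kdm5c and Hdac6. The genotypes are separate in Kat6b, Hdac11, Hdac5, Kdm1b and Kdm4b, whereas in Kdm6a and Kdm5c replicate 2 lies above replicate 1 in both genotypes.

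Kdm6a and Kdm5c differed between replicates more than between genotypes. Both are X-linked demethylase genes known to escape X inactivation in mice: Kdm6a (UTX) acts on H3K27 and Kdm5c on H3K4. Kdm6a had 2435 and 3463 in the cKO, against 2211 and 3439 in the controls, so replicate 2 was higher than replicate 1 by 0.51 in the cKO and by 0.64 in the controls on the log2 scale. Kdm5c had 7651 and 9634 in the cKO, against 7140 and 9934 in the controls, with replicate 2 higher by 0.33 in the cKO and by 0.48 in the controls. These 2 were the only ones of the 66 genes with a gap of at least 0.3 between replicates in both genotypes. Xist, the RNA of the inactive X, had 49.4 and 21449 in the cKO, against 23.4 and 20334 in the controls, and the Y-linked Ddx3y had 3211 and 2.94 in the cKO, against 2936 and 4.32 in the controls. Replicate 2 thus held Xist and almost no Y-linked reads in both genotypes, and replicate 1 the reverse. The genotype changes were 0.07 (95% interval -0.40 to 0.55) for Kdm6a and 0.03 (95% interval -0.31 to 0.37) for Kdm5c, wide because the fit takes the gap between replicates as error. The other X-linked enzyme genes did not show this pattern: Hdac6 had 3019 and 2943 in the cKO, against 3016 and 2953 in the controls, and Hdac8 had 690 and 657 in the cKO, against 639 and 655 in the controls.

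Enzymes and partners outside the symbol rule were read in 5 further lists. Of 13 other acetyltransferase genes, Hat1 (log2 0.20, limma adjusted p 0.0329), which acetylates newly made H4, and Naa40 (log2 0.18, limma adjusted p 0.0436), which acetylates histone N-termini, rose and 11 did not pass. Both also passed by edgeR, and neither by DESeq2 (adjusted p 0.0621 for Hat1 and 0.0642 for Naa40). Ep300 and Crebbp, the main H3K27 acetyltransferases, had 0.07 and 0.03. Of 20 tested methyltransferase genes, 2 rose, 1 fell and 17 did not pass. Those that rose were Suz12, a Polycomb repressive complex 2 subunit (log2 0.28, limma adjusted p 0.0349), and Suv39h1, an enzyme that adds 3 methyl groups to H3K9 (log2 0.22, limma adjusted p 0.0439), and the one that fell was Prdm8, a factor of cortical neurons (log2 -0.34, limma adjusted p 0.0161). Ezh2, the catalytic partner of Suz12, had 0.08. Of 10 other demethylase-family genes, 0 passed by limma, edgeR or DESeq2 (2 with an unadjusted limma p under 0.05). Of 13 subunits that work with the H3K4 methyltransferases, Hcfc2 fell (log2 -0.29, limma adjusted p 0.0206) and 12 did not pass. Neither edgeR (adjusted p 0.0539) nor DESeq2 (adjusted p 0.0738) called Hcfc2, and both called 0 of the 13. Of 29 genes of deacetylase complexes, Rest, the DNA-binding repressor that recruits CoREST proteins (log2 0.26, limma adjusted p 0.0494), and Tbl1x, a subunit of the Ncor complexes (log2 0.23, limma adjusted p 0.0474), rose. Sin3b, a scaffold of Hdac1 and Hdac2 (log2 -0.16, limma adjusted p 0.0464), fell, and 26 did not pass. Rest was not called by edgeR (adjusted p 0.0779), nor Sin3b by DESeq2 (adjusted p 0.155). Without cKO replicate 1, the upward calls among the 20 methyltransferase genes and all calls among the 29 deacetylase complex genes were lost, while Hat1, Naa40, Hcfc2 and Prdm8 passed. The core enzymes of the CoREST complex, left out of the symbol rule, did not pass: Kdm1a had 11499 and 12028 in the cKO, against 12549 and 12528 in the controls, Hdac1 had 784 and 739 in the cKO, against 783 and 779 in the controls, and Hdac2 had 12521 and 13135 in the cKO, against 12848 and 13078 in the controls. Medians of these 5 lists lay from 0.01 to 0.06 on the log2 scale, beside -0.01 for all tested genes. By limma, 15.4% of the other acetyltransferase genes and 15% of the methyltransferase genes were called, beside 14.5% of all tested genes. The share was 10.3% for deacetylase complexes, 7.69% for the H3K4 methyltransferase subunits and 0% for the demethylase family. No list was tested against other genes.

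Markers of neurons and of dividing cells changed in cKO midline. Of 18 neuron genes 16 fell (median -0.43), of 17 genes of dividing cells 14 rose (median 0.28), and of 13 radial glia genes 8 rose and 1 fell. Over all tested genes 6.16% rose and 8.29% fell by limma, and these shares stand beside every list count here. Summed normalized counts of the neuron list were 144492 and 156295 in the cKO, against 201190 and 201779 in the controls, and those of the dividing-cell list 128420 and 120112 in the cKO, against 99678 and 105225 in the controls. In bulk tissue, fewer cells of a type and less RNA per cell cannot be told apart. Of 10 interneuron genes 5 fell, and of 8 choroid plexus genes 3 rose. Among dorsal telencephalon genes, which the labelled tissue should hold, Emx1 and Emx2 rose (log2 0.20 and 0.25), Neurod2, Neurod6 and Tbr1 fell (log2 -0.36, -0.42 and -0.18), and Lhx2 and Eomes did not pass. Of 10 genes of meninges and mural cells, 2 rose. Red cell genes (6 tested, 2 fell) summed to 1003 and 1604 in the cKO, against 1876 and 2683 in the controls. Among 10 endothelial and 10 microglial genes 0 passed by limma, edgeR or DESeq2 (2 and 0 with an unadjusted limma p under 0.05). Without cKO replicate 1, 14 neuron genes fell and 10 genes of dividing cells rose. No gene of these lists that the table holds was at 0 in all libraries. The part of these shifts and of cKO replicate 1 in the changes of Kat6b, Hdac11, Hdac5, Kdm1b and Kdm4b was not tested. Fits without cKO replicate 1, and with the replicate number as a block, are given below. The Xist pattern follows the replicate number in both genotypes, and its part was not tested apart from that block.

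The calls depended on the libraries. Without cKO replicate 1, Hdac11 alone passed, and without cKO replicate 2, 11 genes passed: the same 5 and Kat2a, Kdm3b, Kmt2d, Prmt2, Prmt5 and Setd1a. Without control replicate 1 and without control replicate 2, 0 passed by limma (6 and 6 with an unadjusted p under 0.05), and of all tested genes 172 and 140 did. Against both controls, the change in cKO replicate 1 and cKO replicate 2 was 0.26 and 0.17 for Kat6b, 0.24 and 0.27 for Hdac11, -0.30 and -0.16 for Hdac5, -0.21 and -0.20 for Kdm1b, and -0.20 and -0.16 for Kdm4b. Kat6b also passed by edgeR (adjusted p 0.0415) and in the authors' deposited table (log2 0.23, adjusted p 0.00304). Hdac5 passed by edgeR (adjusted p 0.0318) and in the authors' deposited table (adjusted p 0.0246), but not with quantile normalization (limma adjusted p 0.0507). Hdac11 passed in the authors' deposited table (adjusted p 0.0473) and not by edgeR (adjusted p 0.0566). Kdm4b passed by edgeR (adjusted p 0.0306) and in 4 other alternatives of 13, and was lost with TMM scaling (limma adjusted p 0.0517), with quantile normalization (limma adjusted p 0.0654), by DESeq2 (adjusted p 0.0878) and in the authors' deposited table (adjusted p 0.0816). Kdm1b passed neither by edgeR (adjusted p 0.0522) nor by DESeq2 (adjusted p 0.117) nor in the authors' deposited table (adjusted p 0.111), and passed in 7 of 13 alternatives, against 10 for Kat6b and Hdac11 and 9 for Hdac5.

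Rcor2 peaks were named for 18 of the 66 genes (27.3%), beside 20.9% of all tested genes. The authors' gene column gave these 18 genes 28 of 6995 peaks: 12 called promoter (42.9%, beside 23.1% of all peaks), 14 gene body (50%, beside 35.9%) and 2 distal (7.14%, beside 17.4%). Intergenic peaks, 23.5% of all, carry no gene name and so could not be counted here. The shares of all peaks include them and are lowered by that, so they are not a like base. Among all peaks 1619 were promoter, 2515 gene body, 1219 distal and 1642 intergenic. Kat6b carried 6 peaks, all in its gene body, a number that 70 of 14324 tested genes reached. It spans chromosome 14, 21499216 to 21672478, and peak number was not set against gene length. Hdac9, Kat2b, Kdm2b, Kdm4a and Setd7 had 2 each, and Hdac5, Kdm1b, Kdm3a, Kdm4c, Kmt2c, Prmt1, Prmt2, Prmt5, Setd1a, Setd1b, Setd2 and Sirt6 had 1 each. Peaks of Kdm1b, Prmt1 and Sirt6 were also named for a neighbour (Tpmt, Gm15545 and Ankrd24). Of the 5 genes that changed, Kat6b, Hdac5 and Kdm1b had a peak, and Hdac11 and Kdm4b had none. Of all 2070 called genes, 618 (29.9%) had a peak and 1452 had none.

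Most of these peaks were of moderate strength in the authors' list. Their median −log10 q was 4.10, against 5.28 for all peaks, and 11 of 28 reached that median. The strongest lay in the gene body of Setd1b (mm10 chromosome 5, 123149938 to 123150277), with a −log10 q of 28.5, an enrichment over IgG of 8.66 and rank 102 of 6995. Its heights were 31 and 40 in the Rcor2 libraries, 9 and 5 in IgG and 15 and 23 in input. The promoter peak of Kdm4a (chromosome 4, 118179126 to 118179562; −log10 q 16.5) had heights of 19 and 31 in Rcor2, 5 and 5 in IgG and 14 and 16 in input. The promoter peak of Prmt5 (chromosome 14, 54517698 to 54517941; −log10 q 16.4) had 18 and 28 in Rcor2, 3 and 8 in IgG and 11 and 20 in input, so its Rcor2 and input heights overlapped. Setd1b, Kdm4a and Prmt5 did not pass in the RNA comparison.

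Peaks at the 3 changed genes differed in how they stood against input. The strongest of the 6 Kat6b peaks (chromosome 14, 21592298 to 21592603; −log10 q 7.22) had heights of 17 and 20 in Rcor2, 7 and 1 in IgG and 8 and 8 in input. The rest of the Kat6b peaks had a −log10 q of 6.56, 4.10, 3.54, 3.02 and 3.02, against a median of 5.28 over all peaks. In 3 of the 6 both Rcor2 heights were above both input heights, and in the other 3 they overlapped. The peak shared by Kdm1b and Tpmt (chromosome 13, 47042567 to 47042758; −log10 q 2.51) had 16 and 15 in Rcor2, 3 and 3 in IgG and 7 and 10 in input. At Hdac5 (chromosome 11, 102219118 to 102219404; −log10 q 5.22) the heights were 12 and 18 in Rcor2, 6 and 3 in IgG and 32 and 23 in input, so the Rcor2 libraries lay under both input libraries.

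Peaks at the other enzyme genes lay above, level with or below input. At Kdm3a, an H3K9 demethylase gene, the promoter peak had heights of 14 and 20 in Rcor2, 2 and 2 in IgG and 5 and 5 in input (−log10 q 4.10). At Kdm2b the stronger gene body peak had 13 and 31 in Rcor2, 6 and 7 in IgG and 11 and 12 in input (−log10 q 10.3). Gene body peaks of Kmt2c and Setd2 were weak, with 13 and 15 in Rcor2, 4 and 4 in IgG and 8 and 4 in input (−log10 q 2.51) and 12 and 13 in Rcor2, 4 and 3 in IgG and 9 and 10 in input (−log10 q 2.12). In these 4 the Rcor2 heights were above both input heights. At the promoter of Setd1a the heights were 13 and 26 in Rcor2, 4 and 2 in IgG and 17 and 13 in input (−log10 q 10.1). At that of Kdm4c they were 13 and 23 in Rcor2, 3 and 1 in IgG and 17 and 14 in input (−log10 q 7.22). At the stronger Hdac9 promoter peak they were 15 and 15 in Rcor2, 2 and 2 in IgG and 11 and 17 in input (−log10 q 5.28). In these 3 promoters Rcor2 and input overlapped. The same held for both Kat2b peaks, of which the first had 9 and 20 in Rcor2, 6 and 2 in IgG and 17 and 14 in input (−log10 q 5.91). It also held for the peak shared by Prmt1 and Gm15545, with 8 and 16 in Rcor2, 4 and 4 in IgG and 16 and 11 in input (−log10 q 2.59), and for the stronger distal peak of Setd7, with 9 and 18 in Rcor2, 5 and 4 in IgG and 9 and 11 in input (−log10 q 4.10). The peak shared by Sirt6 and Ankrd24 had 9 and 19 in Rcor2, 5 and 5 in IgG and 23 and 20 in input (−log10 q 4.24), so its Rcor2 heights lay under both input heights.

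Over all 28 peaks, both Rcor2 heights were above both input heights at 12, beside 40.3% of all peaks, and below both at 3 (Hdac5, Prmt2 and Sirt6), beside 9.08% of all peaks. Against IgG, on which the peaks were called, both Rcor2 heights were higher at 27 of 28, beside 98.9% of all peaks. The exception was the promoter peak of Prmt2, with 6 and 17 in Rcor2, 4 and 6 in IgG and 19 and 19 in input. Heights are coverage with no scaling for depth, so a height above or below input cannot be told apart from a difference in sequencing depth, and no test was made. After each height was divided by its library's median over all peaks, the count above input was 8 of 28, beside 29.8% of all peaks. That median holds the Rcor2 signal at the peaks as well as depth, so the division is not a depth correction. Without Rcor2 replicate 1 the count above input was 23 of 28. That count is given without the share over all peaks and is not a result about the enzyme peaks. Rcor2 replicate 2 was the higher of the pair at 26 of 28 peaks. Over all peaks its median height was also the higher, at 19 against 13 in Rcor2 replicate 1.

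**Figure D4:**
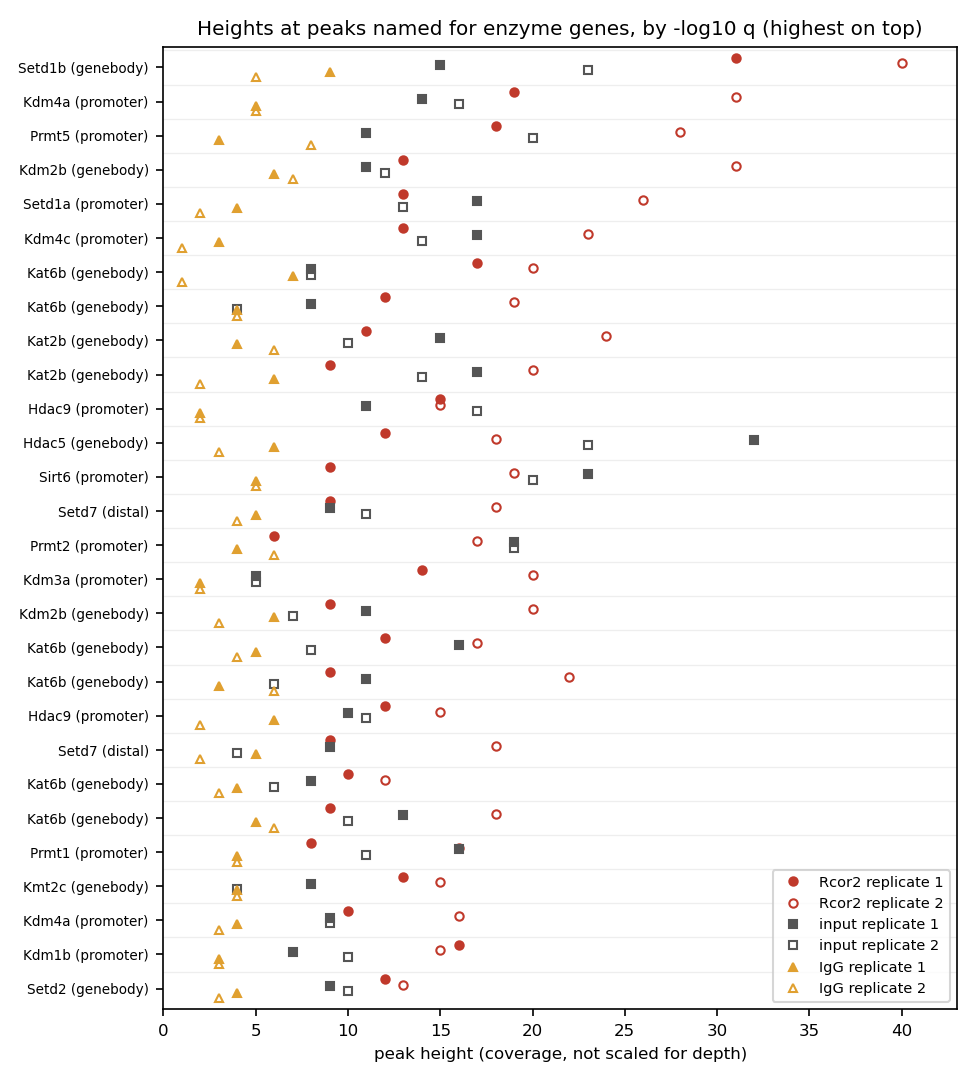
Height (coverage, horizontal axis) at each of the 28 peaks named for an enzyme gene, sorted by the authors' −log10 q with the highest on top, in the Rcor2 (circles), input (squares) and IgG (triangles) libraries, filled for replicate 1 and open for replicate 2. IgG heights stay between 1 and 9, and Rcor2 heights lie above both input heights in 12 rows.

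To show the sequence around the promoter peaks, the start-site windows of the 6 enzyme genes with the strongest promoter peak were read from RefSeq (build GRCm38.p6, on which mm10 rests), each 300 bases on the gene's strand, with 250 before the start and 50 from it; of the 66 genes, 55 had a window. Capitals mark matches, on either strand, to any of 9 short motifs: CAGCACC and GGACAG (the left and right part of the RE1 element bound by Rest), CCAAT (NF-Y), GGGCGG (GC box), CCGGAAG (ETS), TGCGCA (NRF1), AAGATGG (YY1), TGACGTC (CRE) and CACGTG (E-box).
Kdm4a: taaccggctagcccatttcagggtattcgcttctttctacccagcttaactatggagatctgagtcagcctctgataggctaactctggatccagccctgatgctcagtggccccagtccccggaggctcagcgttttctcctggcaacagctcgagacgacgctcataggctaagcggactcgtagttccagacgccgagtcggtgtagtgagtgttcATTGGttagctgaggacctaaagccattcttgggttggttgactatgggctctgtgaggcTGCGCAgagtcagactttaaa
Prmt5: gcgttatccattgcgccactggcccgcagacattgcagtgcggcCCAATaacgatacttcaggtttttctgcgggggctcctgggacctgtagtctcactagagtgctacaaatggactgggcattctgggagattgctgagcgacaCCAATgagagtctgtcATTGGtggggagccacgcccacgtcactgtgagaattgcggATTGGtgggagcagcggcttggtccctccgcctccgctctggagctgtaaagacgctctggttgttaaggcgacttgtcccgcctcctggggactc
Setd1a: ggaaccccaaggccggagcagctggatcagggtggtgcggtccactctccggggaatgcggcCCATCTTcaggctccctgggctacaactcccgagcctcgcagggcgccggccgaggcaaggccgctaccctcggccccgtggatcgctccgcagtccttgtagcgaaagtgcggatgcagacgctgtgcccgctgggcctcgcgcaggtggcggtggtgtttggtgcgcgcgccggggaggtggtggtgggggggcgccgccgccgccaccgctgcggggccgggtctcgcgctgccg
Kdm4c: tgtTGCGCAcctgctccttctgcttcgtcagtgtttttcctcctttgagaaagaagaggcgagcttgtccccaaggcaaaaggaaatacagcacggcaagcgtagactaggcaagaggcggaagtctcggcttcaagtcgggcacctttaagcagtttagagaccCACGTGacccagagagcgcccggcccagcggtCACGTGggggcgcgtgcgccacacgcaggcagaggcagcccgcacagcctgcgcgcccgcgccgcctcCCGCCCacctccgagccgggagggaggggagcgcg
Hdac9: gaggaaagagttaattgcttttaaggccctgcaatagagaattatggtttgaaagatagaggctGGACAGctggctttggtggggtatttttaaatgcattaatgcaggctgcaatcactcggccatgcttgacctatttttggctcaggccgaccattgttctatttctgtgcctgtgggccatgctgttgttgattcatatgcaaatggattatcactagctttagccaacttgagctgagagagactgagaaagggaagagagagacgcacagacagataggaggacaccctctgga
Sirt6: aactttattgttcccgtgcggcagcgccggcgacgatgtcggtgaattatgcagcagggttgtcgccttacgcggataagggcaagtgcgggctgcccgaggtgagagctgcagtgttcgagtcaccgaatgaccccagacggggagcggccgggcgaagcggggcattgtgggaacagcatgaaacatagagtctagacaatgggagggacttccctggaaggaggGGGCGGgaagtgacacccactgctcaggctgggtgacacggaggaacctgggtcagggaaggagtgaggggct
These windows are, in order, Kdm4a (chr4:118179994-118180293, minus strand), Prmt5 (chr14:54517421-54517720, minus), Setd1a (chr7:127777139-127777438, plus), Kdm4c (chr4:74251629-74251928, plus), Hdac9 (chr12:34528840-34529139, minus) and Sirt6 (chr10:81627273-81627572, minus). The start used was the outer end of the gene's RefSeq span for Prmt5 and Setd1a, and lay inside it by 47 bases for Kdm4a, 470 for Sirt6, 9382 for Kdm4c and 388206 for Hdac9. The windows of Sirt6, Kdm4c and Hdac9 thus lay wholly inside the gene's span, downstream of its outer start. The Sirt6 peak covered 157 bases of its window and the Prmt5 peak 23. The summit was 651 bases from the start for Kdm4a, 1083 for Setd1a and 837 for Kdm4c, so those peaks lay outside the window. For Hdac9 the stronger peak lay just outside, with its summit 175 bases from the start, and the weaker peak (34528950 to 34529129) lay within the window. CCAAT letters occurred 4 times in the Prmt5 window and 1 time in that of Kdm4a, and 37.4% of all 32851 windows hold them. The E-box letters occurred 2 times in the Kdm4c window (7.15% of all windows). Hdac9 held GGACAG (22.2% of all windows), and CAGCACC was in none of the 6. A match of letters is not a bound site.

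Promoters of the enzyme genes as a group were rich in CpG: their 77 windows had a median of 21 CpG and 61.7% G or C, against 7 and 52.7% over all 32851 windows. GC boxes were in 63.6% of the enzyme windows and 35.7% of all windows, NRF1 letters in 18.2% and 7.76%, and ETS letters in 16.9% and 8.86%. The RE1 parts were in 10.4% (CAGCACC) and 14.3% (GGACAG) of the enzyme windows and in 7.14% and 22.2% of all windows. CCAAT was in 41.6% and 37.4%, CACGTG in 11.7% and 7.15%, TGACGTC in 6.49% and 3.21%, and AAGATGG in 3.90% and 6.34%. The enzyme genes had passed a minimum of normalized counts, whereas the 32851 windows belong to 27025 genes with no such filter. The sets are therefore unlike, and windows of expressed genes alone were not compared. These are descriptions of letters, and windows of 1 gene can overlap.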

How the data were processed

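RNA was measured in 2 cKO and 2 control libraries and Rcor2, IgG and input chromatin in 2 libraries each. Reads were handled with Trim Galore and HISAT2 2.1.0 on mm10, per the submitters' processing notes; for counting, normalization and peak calling no tool is named there. The authors deposited normalized counts (a signal), their mean, log2 fold changes, a test statistic (score) and p-values, per the file headers. That these counts are reads divided by a size factor was inferred from their values. The deposited peak table holds −log10 p and q, a ratio (fold enrichment over IgG) and coverage heights per library, per the file headers; the headers of the −log10 columns are spoiled, and they were read by place and range.

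All normalized counts were whole multiples of 1 step per library (100% at a relative tolerance of 1e-04), which gave back the reads. The main test was limma 3.58.1 (trend) on log2(normalized count + 1) of 14324 genes whose mean reached 10 (2014 left out), with Benjamini-Hochberg adjustment over all of them and a threshold of 0.05; fold changes are on that scale, which understates low genes. The fit had 2 residual and 6.21 prior degrees of freedom. It was run on simulated data with log2 changes of 1 and 2 in either direction. Changes as small as those called here were not simulated. edgeR 4.0.16 and DESeq2 1.42.0 on the recovered reads were alternatives (edgeR called 1742 genes), as were other pseudocounts, filters, scalings, each library left out, a replicate block and the authors' own test, which was added after the data were seen. Lengths were not at hand, so levels are not compared between genes. Whether overlapping or antisense genes share reads was not tested. The enzyme genes, classes and lists were chosen with earlier results of these data known. Genes named are those that passed, per class the 2 highest and the most changed, those with a peak, those near the minimum and the X-linked ones; others that had an unadjusted p under 0.05 or relate to these were named after their values were seen.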

Additional observations from a re-analysis of the deposited data

How the results depend on the processing

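Of the 66 enzyme genes, 54 passed in no fit, 7 passed only in an alternative, and the 5 called genes kept their sign in all 13 alternatives; no call reversed. The count of enzyme genes called was 5 with a pseudocount of 8, without the filter and with a minimum mean of 50, 4 with TMM, quantile normalization and edgeR, and 3 with DESeq2 and in the authors' deposited table. Leaving out 1 library gave 0 to 11 enzyme genes and 140 to 3453 of all tested genes, against 2070 with all 4 libraries; the cause was not tested. With 1 library in an arm, that library is assumed to vary like the others. With the replicate number as a block, 4 enzyme genes and 2076 of all genes passed (Kdm4b was lost, limma adjusted p 0.0544); same-numbered libraries correlated at 0.242 in their deviations and shared the Xist and Y-linked pattern, but there are 2 pairs and no label ties the numbers to a litter or day. Under the block the SE was 0.0568 for Kdm6a and 0.0541 for Kdm5c, against 0.206 and 0.149 without it, and neither passed. No other call of an enzyme gene changed under the block.

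Enzyme genes with a peak numbered 10 at a −log10 q of at least 5 and 10 with promoter peaks alone. At that −log10 q, 12 peaks remained, since fewer peaks enter, with Rcor2 above input at 5 and above IgG at 12. Leaving out 1 library gave 12 to 23 peaks above input and 27 to 28 above IgG. The counts of this paragraph are given without the share over all peaks and are not a result about the enzyme peaks. No test, paired or not, was made on the peak heights, which are not scaled for depth. Depth limits Setdb2 most, at a mean of 18.5 normalized counts.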
